A study of Homo sapiens with 12 samples.

Results

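MT-TM encodes mt-tRNA Met, the methionine tRNA of human mitochondria. It was taken by name as the 1 methionine gene among the 22 mt-tRNA genes, and its table of 3' end reads was followed through all 6 MPAT-Seq libraries, with its counts in 6 RNA-seq samples as a second readout. All samples came from HEK293T cells, a human embryonic kidney line, in the Flp-In T-REx form that carries doxycycline-inducible transgenes. PDE12+/+ cells were the unedited line. PDE12-/- cells were 1 single-cell clone with frameshifts made by zinc finger nucleases in both alleles of PDE12. The other MPAT-Seq libraries were PDE12-/- + WT, with induced wild-type PDE12, PDE12-/- + E351A, with an induced catalytic mutant of PDE12, and PDE12+/+ + mtPAP and PDE12-/- + mtPAP, with induced mitochondrial poly(A) polymerase. Each MPAT-Seq condition had 1 library, so every difference below compares 2 libraries and has no replicate check. RNA-seq covered PDE12+/+ and PDE12-/- alone, with 3 numbered repeats each. The tables hold mitochondrial genes, so neither the loss of PDE12 nor the identity of the cells was checked here.

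Human mitochondria have 1 tRNA for methionine, which serves initiation after formylation of its methionine and elongation without it. Its anticodon carries a formylated cytosine at the wobble position and reads AUA as well as AUG. The CCA end on which an amino acid is loaded is not encoded in mitochondrial DNA and is added by the nucleotidyltransferase TRNT1. mtPAP adds A to mitochondrial RNA, and PDE12 is a 3' to 5' exoribonuclease that removes A. The 13 annotated coding sequences of the mitochondrial genome hold 40 AUG and 167 AUA codons, 5.46% of 3791 codons, so reads of this tRNA concern a codon family found throughout the mt-mRNAs.

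In GRCh38 the gene is at chrM:4402-4469, + strand, and has 68 bases. It is a tRNA gene with 1 exon. The sequence of the gene is shown because it ends where the measurement starts. Capitals mark the anticodon, bases 31 to 33, and the last base, the discriminator base, after which positions are counted as +1, +2 and +3 for CCA and from +4 for any extension.
MT-TM gene: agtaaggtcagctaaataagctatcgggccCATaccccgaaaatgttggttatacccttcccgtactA
Forward primer of the assay: gtaaggtcagctaaataagctatcgg
Genome after the gene: attaatcccctggcccaacc
Most frequent 3' end: aCCAaaaaaaaa
The primer covers bases 2 to 27 of the gene, so each read runs through the anticodon to the 3' end. The genome goes on at chrM:4470-4489 into MT-ND2 with 0 bases between the genes, and MT-TQ, on the - strand, lies 1 base upstream. The most frequent end, from the discriminator base to +11 with CCA in capitals, was assembled from the most frequent base at each position. It was the same in all 6 libraries, and its least frequent base stood in 77.1% (PDE12+/+) to 98.1% (PDE12-/- + mtPAP) of the reads at its position. The tables give counts per position, so which bases stood together in a read is not known from them.

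MT-TM was read deeply. Reads at its discriminator base numbered 82115 in PDE12+/+, 42245 in PDE12-/-, 38504 in PDE12-/- + WT, 56304 in PDE12-/- + E351A, 46556 in PDE12+/+ + mtPAP and 33823 in PDE12-/- + mtPAP, out of 300014 to 782111 over all 22 mt-tRNAs. These numbers follow primers and PCR as well as RNA, and the reads carry no molecular identifiers. The paper cautions that the reverse transcriptase has to pass modified bases, which may over-represent extension on unmodified molecules. Shares of reads below therefore may not equal shares of all mt-tRNA Met molecules. Intervals below are 95% Wilson intervals for shares and 95% Newcombe intervals for differences, and both cover counting error only. For the 2 mtPAP libraries, the labels give 1 genotype and the name under which each table was deposited gives the other. The title line inside each table has the genotype of its deposited name, and 13 of 13 positions of MT-TM were identical to the source data sheet of that genotype. The deposited names are used here. By the labels, each value of the library called PDE12+/+ + mtPAP below belongs to PDE12-/- + mtPAP and the reverse, and the differences of MT-TM in percentage extended with mtPAP are given both ways.

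The percentage extended, the reads at +4 divided by the reads at +3, spanned a wide range for MT-TM. It was 5.96% in PDE12+/+ (5.80 to 6.13; 77333 reads at +3) while PDE12-/- had 17.4% (17.0 to 17.8; 40740 reads). With wild-type PDE12 it was 7.08% (6.72 to 7.46; 18783 reads), and with E351A it was 76.8% (76.4 to 77.1; 54307 reads). Among the libraries with mtPAP, PDE12+/+ had 3.23% (3.07 to 3.40; 44432 reads) whereas PDE12-/- had 63.1% (62.5 to 63.6; 29731 reads). The order from the highest was thus PDE12-/- + E351A, PDE12-/- + mtPAP, PDE12-/-, PDE12-/- + WT, PDE12+/+ and PDE12+/+ + mtPAP, and the intervals of all neighbours in it were apart. Divided by reads at the discriminator base instead, PDE12-/- + WT had 3.45% and PDE12+/+ 5.62%, so these 2 libraries changed places. By the labels, the 63.1% belongs to PDE12+/+ + mtPAP and the 3.23% to PDE12-/- + mtPAP.

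The place of MT-TM among the mt-tRNAs moved between libraries. Counted from the highest percentage, it held rank 17 of 22 in PDE12+/+, 14 in PDE12-/-, 11 in PDE12-/- + WT, 8 in PDE12-/- + E351A, 19 in PDE12+/+ + mtPAP and 17 in PDE12-/- + mtPAP. It was below the median of the 22 in PDE12+/+ (12.8%), PDE12-/- (34.5%), PDE12+/+ + mtPAP (24.2%) and PDE12-/- + mtPAP (88.5%). It was just above the median in PDE12-/- + WT (6.98%) and well above it in PDE12-/- + E351A (59.7%). In PDE12+/+, PDE12-/- + E351A and PDE12+/+ + mtPAP no other mt-tRNA had an interval that overlapped with that of MT-TM. In PDE12-/-, MT-TE (18.8%, glutamate), MT-TW (15.6%, tryptophan) and the thinly read MT-TS1 (13.5% of 37 reads, serine) overlapped with it. In PDE12-/- + WT, MT-TE (6.88%) and MT-TR (5.78%, arginine) did, and in PDE12-/- + mtPAP, MT-TS1 (73.6% of 53 reads) did. The mt-tRNAs directly above and below MT-TM were MT-TK (8.02%) and MT-TD (4.99%) in PDE12+/+, MT-TF (79.6%) and MT-TG (67.4%) in PDE12-/- + E351A, and MT-TC (4.29%) and MT-TV (1.80%) in PDE12+/+ + mtPAP.

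Loss of PDE12 was compared in PDE12-/- and PDE12+/+. MT-TM rose by 11.4 percentage points (11.0 to 11.8), a ratio of 2.92. This was an ordinary rise for an mt-tRNA. Of the 22 mt-tRNAs, 16 (72.7%) were higher in PDE12-/- with intervals apart, the median difference was 11.5, and MT-TM held rank 12 of the differences.

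Whether expressed PDE12 restores the ends was compared in PDE12-/- with active and inactive enzyme. With wild-type PDE12 the percentage fell by 10.3 percentage points (difference -10.3, -10.8 to -9.80) from that of PDE12-/-. Here 18 of the 22 mt-tRNAs (81.8%) were lower with intervals apart, and the median difference was -12.0. With E351A the percentage rose by 59.4 percentage points (58.9 to 59.9), 4.41 times the PDE12-/- value. Among the 22 mt-tRNAs, 18 (81.8%) were higher with intervals apart in that comparison, with a median difference of 16.5. The difference of MT-TM held rank 1 of 22, followed by MT-TG, the glycine mt-tRNA. Both comparisons share the PDE12-/- library.

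Expression of mtPAP was compared within each genotype. In PDE12+/+ it went with a lower value for MT-TM, 3.23% against 5.96% (difference -2.73 percentage points, -2.96 to -2.49). Under this assignment 4 of the 22 mt-tRNAs (18.2%) were lower with intervals apart, 15 were higher with intervals apart and the median difference was 8.72. The fall of MT-TM was smaller, -1.82, if all reads with A in place of the second C of CCA were extended and are taken out. This alternative was chosen after seeing the data, and counts per position do not show whether those reads were extended. In PDE12-/- mtPAP went with a rise of 45.7 percentage points (45.0 to 46.3), where 20 of the 22 (90.9%) were higher with intervals apart and the median difference was 40.9. Between the 2 mtPAP libraries, PDE12-/- exceeded PDE12+/+ by 59.8 percentage points (59.3 to 60.4), a ratio of 19.5. The same direction with intervals apart held for 21 of the 22 (95.5%), with a median of 39.9. By the labels, these 3 differences become 57.1, -14.2 and -59.8 percentage points. MT-TM then goes with the direction of most mt-tRNAs in each of them. With mtPAP in PDE12+/+, 21 of the 22 (95.5%) are then higher with intervals apart and the median is 56.8. In PDE12-/-, 12 of the 22 (54.5%) are then lower and 5 higher, with a median of -6.68, and between the mtPAP libraries 21 of the 22 (95.5%) are lower, with a median of -39.9.

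Reads also ended before the CCA was complete. Of the reads at the discriminator base, 5.82% (5.67 to 5.99) did not reach the A of CCA in PDE12+/+, 3.56% (3.39 to 3.74) in PDE12-/- and 3.55% (3.40 to 3.70) in PDE12-/- + E351A. The E351A and PDE12-/- libraries differed by -0.0157 percentage points (-0.251 to 0.217), although their percentages extended were 59.4 points apart. The share was 4.56% (4.38 to 4.76) in PDE12+/+ + mtPAP and 12.1% (11.8 to 12.5) in PDE12-/- + mtPAP.

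With wild-type PDE12 the share was 51.2% (50.7 to 51.7), 47.7 percentage points (47.1 to 48.2) above PDE12-/-. In that library 12.5% of the reads ended at the discriminator base, 8.70% at the first C and 30.02% at the second C, and 45.3% ended at the A of CCA. Of the reads that reached the second C, 38.1% (37.6 to 38.6) went no further there, against 1.96% (1.83 to 2.10) in PDE12-/-, 3.12% (3.00 to 3.24) in PDE12+/+ and 1.16% (1.08 to 1.26) with E351A. MT-TM was not alone in this. Ends before the A of CCA ran from 13.0% to 60.2% over the 22 mt-tRNAs of that library, with a median of 37.4%, and MT-TM held rank 5 from the highest. In PDE12-/- + mtPAP the ends lay mostly at the second C, with 8.67% of the reads, against 3.23% at the first C and 0.198% at the discriminator base. By the labels, these 3 shares and the 12.1% belong to PDE12+/+ + mtPAP and the 4.56% to PDE12-/- + mtPAP. Sorted into ends before the A of CCA, ends at it and extended ends, most reads ended at it in PDE12+/+ (88.6%), PDE12+/+ + mtPAP (92.4%) and PDE12-/- (79.7%), before it in PDE12-/- + WT (51.2%), and past it in PDE12-/- + E351A (74.0%) and PDE12-/- + mtPAP (55.4%).

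**Figure D1:**
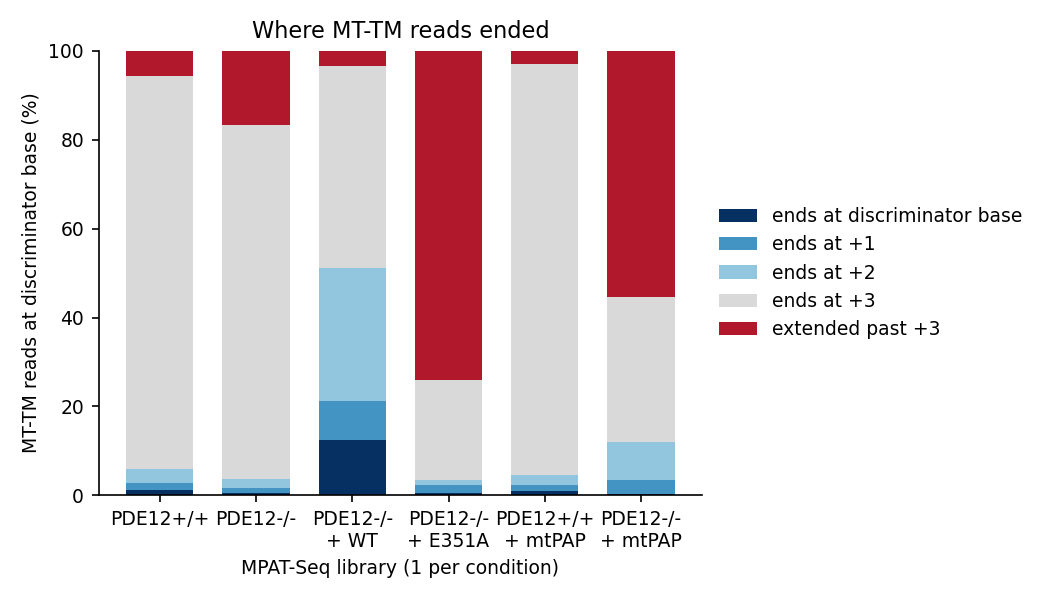
Share of the MT-TM reads at the discriminator base (vertical axis, %) by where they ended, in each library, stacked to 100. Blue parts ended before the A of CCA at +3 and reach 51.2% in PDE12-/- + WT, and red parts were extended past +3 and reach 74.0% in PDE12-/- + E351A.

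The extensions differed in length. The median number of added bases was 5 in PDE12+/+ and PDE12+/+ + mtPAP, 7 in PDE12-/-, PDE12-/- + WT and PDE12-/- + E351A, and 8 in PDE12-/- + mtPAP. Ends with 1 added base made up 20.1% of the extended reads in PDE12+/+ (19.0 to 21.3; 4611 extended reads) and 16.2% in PDE12+/+ + mtPAP (14.4 to 18.2; 1437 reads). Such ends were fewer in PDE12-/-, 7.34% (6.75 to 7.97; 7089 reads), and were 5.26% in PDE12-/- + WT (4.19 to 6.60; 1330 reads). They were rare in PDE12-/- + E351A, 1.04% (0.946 to 1.14; 41692 reads), and in PDE12-/- + mtPAP, 0.40% (0.319 to 0.501; 18750 reads).

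At the other end of the distribution, 8 or more added bases were carried by 16.4% of the extended reads in PDE12+/+ (15.4 to 17.5), 14.4% in PDE12+/+ + mtPAP (12.7 to 16.3), 32.1% in PDE12-/- (31.0 to 33.2), 33.8% in PDE12-/- + WT (31.3 to 36.3), 49.4% in PDE12-/- + E351A (48.9 to 49.9) and 50.3% in PDE12-/- + mtPAP (49.6 to 51.0). The libraries thus formed 3 pairs whose members had overlapping intervals. By the labels, the lengths of the 2 mtPAP libraries exchange genotypes, so that PDE12+/+ + mtPAP has the 50.3% and PDE12-/- + mtPAP the 14.4%. Extended reads of PDE12-/- + WT were fewer than those of PDE12-/-, 7.08% against 17.4%, but the shares with 8 or more bases differed by 1.64 percentage points (-1.08 to 4.44). Between PDE12-/- and PDE12+/+ that difference was 15.7 percentage points (14.1 to 17.2). The reads stopped abruptly after 8 added bases, and a ninth was read in 0 to 9 reads per library. Over all mt-tRNAs, the furthest position held by over 1% of extended reads in any library moved with gene length, from +10 for the gene of 59 bases to +13 for the gene of 75 bases, and it was +11 for MT-TM in all 6 libraries. Tails longer than this were hardly read in any library, so 8 added bases is a lower limit for the reads that reached it.

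**Figure D2:**
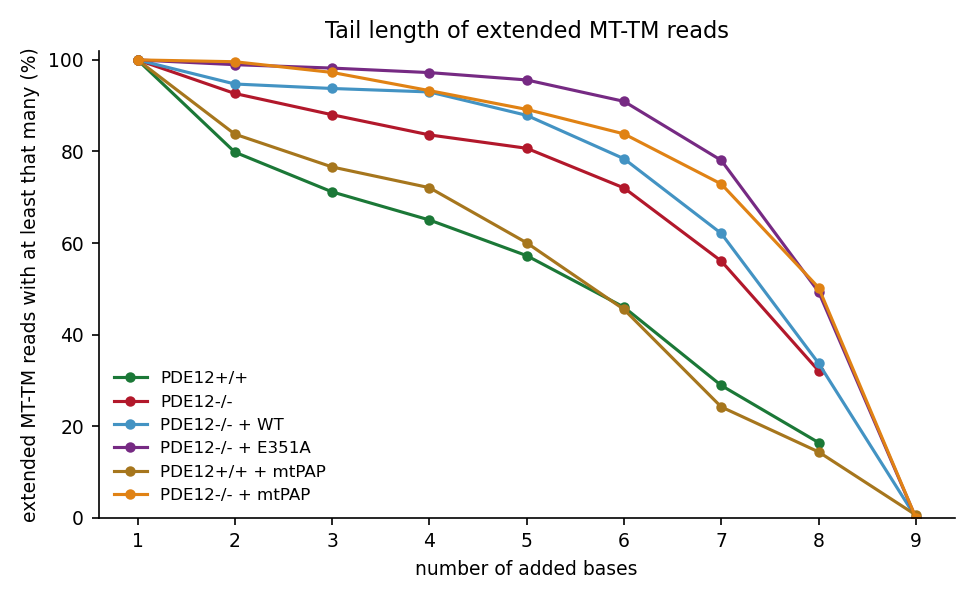
Share of the extended MT-TM reads (vertical axis, %) with at least the number of added bases on the horizontal axis, 1 line per library. The lines of PDE12+/+ and PDE12+/+ + mtPAP lie lowest and reach 16.4% and 14.4% at 8 bases, and those of PDE12-/- + E351A and PDE12-/- + mtPAP reach 49.4% and 50.3%, and no line rises above 1% at 9 bases.

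The added bases were mostly A. Over all positions from +4, A made up 88.2% of base calls in PDE12+/+ (21426 calls), 95.1% in PDE12-/- (42906), 94.7% in PDE12-/- + WT (8562), 98.9% in PDE12-/- + E351A (295361), 91.0% in PDE12+/+ + mtPAP (6859) and 99.5% in PDE12-/- + mtPAP (128705). Most of the rest was C, with 9.67%, 4.44%, 1.99%, 0.969%, 5.73% and 0.316% in the same order. G and T together stayed below C in these libraries except in PDE12-/- + WT, which had 1.86% G and 1.47% T. C was 5.23 percentage points lower in PDE12-/- than in PDE12+/+ (difference -5.23, -5.67 to -4.79).

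C stood at particular places. In PDE12+/+ it made up 3.12% of the first added bases (2.66 to 3.67), 18.3% of the second (17.0 to 19.5), 3.38% of the third (2.82 to 4.06), 20.5% of the fourth (19.1 to 21.96) and 19.5% of the fifth (18.0 to 21.02), then 0.707% of the sixth (0.429 to 1.16). In PDE12+/+ + mtPAP the second had 13.5% (11.6 to 15.5), the fourth 13.4% (11.5 to 15.6) and the fifth 7.88% (6.26 to 9.87), against 0.139% at the first and 0.0908% at the third. The seventh had 5.75% there, from 20 reads. PDE12-/- had another profile, with C highest at the first added base, 11.0% (10.3 to 11.8), and 5.65%, 4.33% and 6.11% at the second to the fourth. C at the first base was common among the mt-tRNAs of that library. Its median was 8.52% over 19 mt-tRNAs with at least 100 reads there, and MT-TM held rank 8. In PDE12-/- + E351A C was 3.18% (3.02 to 3.35) at the first base and at most 1.25% after it, and in PDE12-/- + mtPAP it was 1.49% (1.32 to 1.67) at the first and at most 0.440% after it. Medians at the first base were 4.96% over 22 mt-tRNAs with E351A (MT-TM rank 17) and 1.28% over 19 in PDE12-/- + mtPAP (rank 8).

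Where at least 100 reads were required at a position, MT-TM had the highest share of C among the mt-tRNAs at the fourth and the fifth added base in PDE12+/+, where the medians of 17 mt-tRNAs were 0.173% and 0.230%. In PDE12+/+ + mtPAP it was the highest of 17 at the second, the fourth and the fifth, where the medians were 0.0875%, 0.0916% and 0%, and of 16 at the seventh. In PDE12-/- + WT it was the highest at the fourth and the sixth, with 1.94% from 24 reads and 0.479% from 5 reads. At the second base of PDE12+/+ it came after MT-TD, the aspartate mt-tRNA, which had 29.3%. By the labels, the peaks of C with mtPAP belong to PDE12-/- + mtPAP. PCR copies of a few molecules and many separate molecules cannot be told apart in these counts.

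**Figure D3:**
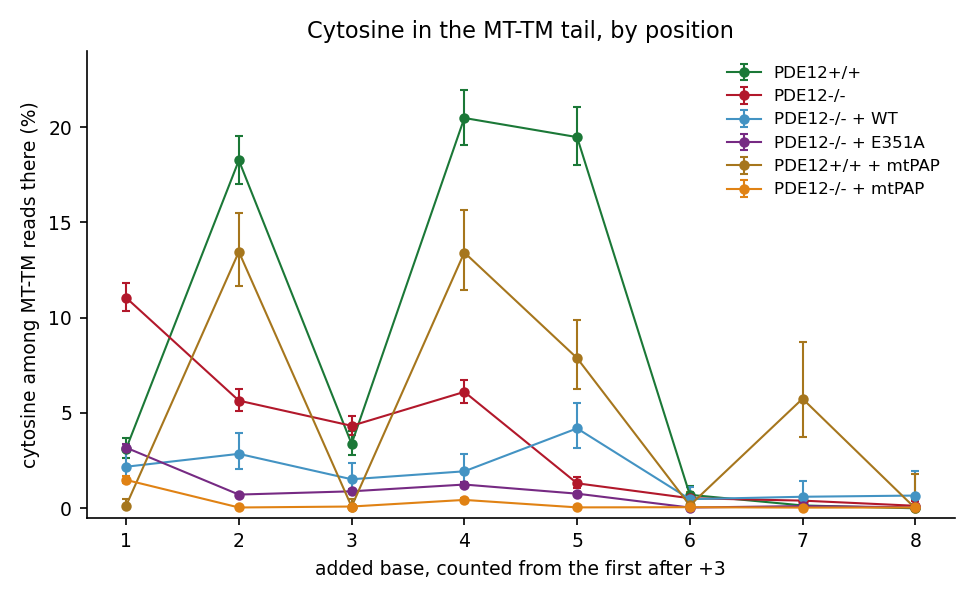
Share of cytosine among MT-TM reads (vertical axis, %, with 95% Wilson intervals) at each added base from the first to the eighth (horizontal axis), 1 line per library. PDE12+/+ and PDE12+/+ + mtPAP peak at the second, the fourth and the fifth added base (18.3%, 20.5% and 19.5% in PDE12+/+), whereas PDE12-/- is highest at the first (11.0%).

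The CCA itself was read as written. C stood at +1 in 98.9% of reads in PDE12+/+, and A stood at +3 in 99.4% to 99.8% of reads over the 6 libraries. A in place of a C was found at +1 in 1.03% of reads in PDE12+/+, 0.842% in PDE12-/-, 0.496% in PDE12-/- + WT, 1.06% in PDE12-/- + E351A, 0.306% in PDE12+/+ + mtPAP and 0.776% in PDE12-/- + mtPAP. At +2 it was found in 1.27%, 0.989%, 0.659%, 1.25%, 0.345% and 1.01%. The genome also has A after the gene, followed by T, and T at +2 was read in 0.0168% to 0.211% of reads, below A at that position in each library. The shares of A at +1 and +2 were lowest in the library with the lowest percentage extended, PDE12+/+ + mtPAP (PDE12-/- + mtPAP by the labels). Elsewhere these shares did not follow the percentage extended. PDE12+/+ and PDE12-/- + E351A had similar shares of A, with 5.96% and 76.8% extended. In PDE12+/+ 1017 reads had A at +2, against 4611 reads at +4, so if all of them had run on past +3 the percentage extended without them was 4.71%.

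By the root mean square difference in percentage extended over the 6 libraries, the mt-tRNAs most like MT-TM were MT-TG (6.24 percentage points), MT-TC, for cysteine (13.7), and MT-TS1 (16.9). MT-TG had 2.87% in PDE12+/+, 11.3% in PDE12-/-, 2.93% in PDE12-/- + WT, 67.4% in PDE12-/- + E351A, 5.87% in PDE12+/+ + mtPAP and 54.4% in PDE12-/- + mtPAP. It stood below MT-TM in the libraries other than PDE12+/+ + mtPAP. With mtPAP in PDE12+/+ MT-TG was higher and MT-TM lower than without it, whereas by the labels both were higher, at 54.4% and 63.1%. MT-TC had 13.8% in PDE12-/-, 43.8% with E351A and 59.2% in PDE12-/- + mtPAP. MT-TS1 had only 37 to 336 reads at +3 outside the E351A library. The likeness rests on 6 libraries that were not replicated. MT-TM shares its discriminator base, A, with 16 of the 22 mt-tRNAs, itself included, and 6 of the 7 pairs of its acceptor stem are Watson-Crick pairs.

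The mt-tRNA genes nearest to MT-TM were read less deeply. MT-TI, for isoleucine (chrM:4263-4331, + strand), had 59.8% in PDE12+/+ (209 reads at +3) and 60.9% in PDE12-/- (192 reads). MT-TQ, for glutamine (chrM:4329-4400, - strand), had 14.2% (1852 reads) and 8.14% (172 reads). The 8.14% rests on 14 reads at +4. The base columns of MT-TQ in PDE12-/- hold 3725 calls past +3, which do not match its read totals. Comparisons of MT-TQ with PDE12-/- rest on these totals. The Wilson intervals of the 2 libraries overlapped for both genes, while those of MT-TM, at 5.96% and 17.4%, were apart. The difference of MT-TQ was -6.06 percentage points (-9.69 to -0.781), opposite in sign to that of MT-TM. In the other 5 comparisons MT-TQ moved in the direction of MT-TM with intervals apart. It differed by -7.08 percentage points (-12.1 to -3.80) with wild-type PDE12, 28.7 (23.6 to 32.1) with E351A and -13.9 (-15.6 to -12.3) with mtPAP in PDE12+/+. The differences were 82.2 (71.1 to 88.3) with mtPAP in PDE12-/- and 90.1 (80.2 to 95.2) between the mtPAP libraries, with wide intervals. MT-TI was higher with intervals apart with mtPAP in PDE12-/- (29.2) and between the mtPAP libraries (21.2), and its Wilson intervals overlapped in the other 4 comparisons. Its differences there were 7.52 (0.584 to 14.8) with wild-type PDE12 and 9.12 (2.12 to 16.4) with mtPAP in PDE12+/+. They were 4.15 (-2.53 to 11.3) with E351A and 1.13 (-8.40 to 10.6) between PDE12-/- and PDE12+/+. By the labels, the 90.3% of MT-TQ with mtPAP belongs to PDE12+/+ and the 0.253% to PDE12-/-, so its 3 directions with mtPAP reverse, as do those of MT-TM, and the 90.2% of MT-TI belongs to PDE12+/+ and the 68.9% to PDE12-/-.

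In RNA-seq, MT-TM was thinly covered. The gene is on the + strand, so forward counts are sense. Sense counts were 4, 15 and 18 in PDE12+/+ replicates 1 to 3 and 12, 11 and 17 in PDE12-/- replicates 1 to 3, out of 36338 to 104708 counts per sample on 35 mitochondrial genes. The groups overlapped, at 155 ± 51.6 CPM in PDE12+/+ and 167 ± 26.7 CPM in PDE12-/- (SD, n = 3). These CPM are per total counts. With TMM scaling, the log2 fold change of PDE12-/- over PDE12+/+ was -0.23 (SE 0.50, adjusted p = 0.966 in edgeR, by its quasi-likelihood fit and the Benjamini-Hochberg method over 70 features). Its sign turned, to 0.055 without TMM scaling and to 0.25 without PDE12+/+ replicate 3. Antisense counts were 0 in all 6 samples, which allows up to 28.7 to 82.6 CPM per sample (3 counts), so an antisense RNA below that was not detectable at this depth. Nothing in the labels says that the repeats were separate cultures, so p-values measure the spread between these samples. The RNA came from mitochondria of bulk cultures, and counts were scaled within the mitochondrial genes. The values are thus shares of mitochondrial RNA and measure neither the number of mitochondria nor the RNA per mitochondrion.

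Of the 70 features, 0 (0%) passed an adjusted p of 0.05 in edgeR and 0 in DESeq2, which gave no adjusted p for 2 features, and 5 had an unadjusted p under 0.05 in edgeR. With the replicate number as a block 4 passed, all on the forward strand. MT-ND2 was higher in PDE12-/-, and MT-TN (log2 fold change -0.87), MT-CO1 (-0.56) and MT-CO2 (-0.62) were lower. MT-TN is a gene of the - strand, so its forward counts are antisense. The 225 is from the sample with the lowest total, 36338, in the counts that follow, which are not scaled. MT-ND2, a complex I subunit gene (chrM:4470-5511) that starts at the base after MT-TM, had sense counts of 225, 620 and 785 in PDE12+/+ and 1136, 1096 and 1453 in PDE12-/-. Its log2 fold change was 0.87 (SE 0.34, adjusted p = 0.285 in the edgeR test) and 0.90 with the block (adjusted p = 0.0140 in that edgeR fit). MT-TM had -0.19 with the block (SE 0.41, adjusted p = 0.956 in that fit). MT-TI had forward counts of 0, 6 and 8 in PDE12+/+ and of 12, 10 and 11 in PDE12-/-, with a log2 fold change of 0.89 (SE 0.59, adjusted p = 0.726 in the edgeR test).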

How the data were processed

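MPAT-Seq ligates a linker to RNA 3' ends and amplifies each mt-tRNA from its own primer. The authors removed primers with cutadapt, mapped reads over 20 nt with Bowtie2 to GRCh38 with uncalled positions added after each mt-tRNA, and deposited raw counts of reads per position and base. The labels call this resequencing after circularization. For RNA-seq the authors trimmed reads with Trim Galore, mapped them with Bowtie2, removed mt-rRNA reads, and deposited raw counts per gene and strand made with Rsubread. Versions are not given in the sources used here.

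Reads ending at a position are its count less the next. Shares have 95% Wilson intervals (SciPy 1.17.1) and differences Newcombe intervals (statsmodels 0.14.6). The detection limit of a share was taken as 3 reads. Calls between libraries mean intervals apart. RNA-seq was fitted on genotype alone with edgeR 4.0.16 (R 4.3.3, TMM, common dispersion, adjusted p of 0.05), with DESeq2 1.42.0 as an alternative. Same-numbered samples deviated together (correlations 0.613, 0.250 and 0.345 over the 37 features whose counts were 10 or more in each sample), so a fit with the number as a block is given as an alternative. The labels do not say that the numbers pair samples. No correlation was computed between differently numbered samples, so the values are not shown to be particular to the numbering. The main test leaves the numbers out. Both computations were also run on simulated data. The simulated read ends check the arithmetic alone. The simulated RNA-seq changes lay in features with more counts than MT-TM, so they do not check its test. Annotation was GENCODE on GRCh38.

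MT-TM, the lists and the tests were chosen with earlier results of these data known. Named are MT-TM, the 3 mt-tRNAs nearest to it over 6 libraries, its neighbours in the order of a library, and MT-TQ, MT-TI and MT-ND2. Other names came after seeing values, and mark overlapping intervals, calls under the block or the highest share of C. In 1 table MT-TD is printed as MT-TT and was assigned by its length, and in 3 tables MT-TY was shifted by 1 base. In PDE12-/- the base columns of MT-TQ do not sum to its read totals, so its base shares were left out. Alternatives were other denominators and positions, the labels' genotypes, other scalings and filters, the block and leaving out each sample. Taking out reads with A at +2, with each of them counted as extended, was added after seeing the data.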

Additional observations from a re-analysis of the deposited data

Results flagged for a closer look

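The libraries with mtPAP differed from those without it in opposite directions in the 2 genotypes, by the percentage extended of MT-TM. PDE12-/- had 17.4% without mtPAP and 63.1% with it, whereas PDE12+/+ had 5.96% without mtPAP and 3.23% with it. The change in PDE12-/- exceeded that in PDE12+/+ by 48.4 percentage points. With 1 library per condition this difference was not tested. By the labels' genotypes the 2 changes also had opposite signs, 57.1 in PDE12+/+ and -14.2 in PDE12-/-, and the value was -71.3. Opposite signs were not particular to MT-TM. Under the deposited names, MT-TN changed by -21.9 percentage points in PDE12+/+ and 55.3 in PDE12-/-, and MT-TQ by -13.9 and 82.2. With intervals apart, 4 of the 22 mt-tRNAs were lower with mtPAP in PDE12+/+ and 15 higher, whereas in PDE12-/- 20 were higher and 1 lower.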

How the results depend on the processing

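Values are given in the order PDE12+/+, PDE12-/-, PDE12-/- + WT, PDE12-/- + E351A, PDE12+/+ + mtPAP, PDE12-/- + mtPAP. The percentage extended of MT-TM was 5.62, 16.8, 3.45, 74.0, 3.09 and 55.4 over reads at the discriminator base, 5.67, 15.4, 6.63, 74.2, 3.23 and 61.9 with only A at +4, 4.76, 16.1, 6.71, 76.0, 2.71 and 62.8 from +5, and 4.71, 16.6, 6.08, 76.5, 2.89 and 62.7 without reads with A at +2. The 6 differences, in the order of the report, were 11.2, -13.3, 57.3, -2.53, 38.7 and 52.3, then 9.68, -8.72, 58.8, -2.44, 46.5 and 58.7, then 11.4, -9.42, 59.8, -2.05, 46.7 and 60.1, and 11.8, -10.5, 59.9, -1.82, 46.1 and 59.8 percentage points under the same 4 settings. Each kept its direction there. The last setting took all reads with A at +2 as extended past +3, which counts per position do not show. Exchanging the mtPAP genotypes to the labels' gave 57.1, -14.2 and -59.8 for the 3 differences with mtPAP, each of opposite sign. The share with 8 or more added bases was 20.6, 34.7, 35.6, 49.9, 17.2 and 50.5 among reads of at least 2 added bases, and 17.1, 36.3, 35.4, 51.1, 14.4 and 51.2 with only A counted. Reads ending before the A of CCA were 6.16, 3.78, 51.5, 3.90, 4.91 and 12.6 with only A at +3, and 4.64, 3.12, 44.3, 3.00, 3.62 and 11.9 counted from +1. A made up 85.6, 93.6, 93.4, 98.4, 90.6 and 99.3 of the bases at +4 to +8.

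In RNA-seq the log2 fold change of MT-TM sense counts was 0.055 without TMM scaling, which moved the median of all features from -0.04 to 0.23, and -0.43 (without PDE12+/+ replicate 1) to 0.25 (without PDE12+/+ replicate 3) when leaving out 1 sample. The replicate block left it at -0.19. Features called of 70 rose from 0 to 4 with the replicate block and to 2 without TMM, MT-ND2 and MT-ATP6. The MT-TM counts did not pass the filter of 10 counts in every sample. With 1 library per MPAT-Seq condition, counting intervals understate the error between cultures, and 4 to 18 counts per sample limit RNA-seq.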

Other observations

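G and T were not spread evenly over the MT-TM tails of PDE12+/+ + mtPAP (PDE12-/- + mtPAP by the labels). G was read 32, 25, 24, 30 and 30 times at the added bases 2, 3, 5, 6 and 7 and 0 times at 1, 4 and 8, and T was read 25, 30 and 24 times at 2, 3 and 4 and at most 1 time elsewhere. The number of reads at these positions fell from 1437 to 207 over the same bases. In PDE12-/- + mtPAP, with 18750 extended reads, the counts that stood out were 67 T at the added base 1, 68 G at 2 and 59 T at 3. Whether these counts come from few molecules copied by PCR was not tested.

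The share of all discriminator base reads that fell on MT-TM was 17.5% in PDE12+/+, 15.5% in PDE12+/+ + mtPAP, and 7.20% to 10.2% in the 4 PDE12-/- libraries. By the labels, the 15.5% belongs to PDE12-/- + mtPAP and 8.46% to PDE12+/+ + mtPAP, so that the 4 PDE12-/- libraries span 7.20% to 15.5%. Amplicons of the 22 mt-tRNAs were pooled for sequencing, so this share does not measure RNA.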
